A study of Mus musculus with 9 samples.

Results

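The Wnt pathway genes of the mouse ovary, from the secreted ligands to the first nuclear factors, were compared between WT and ERβKO mice. Members were defined by symbol, on a list chosen with earlier results of these data known. They were the genes named Wnt, Fzd, Sfrp, Dkk or Rspo with a number, together with Lgr4, Lgr5, Lgr6, Axin1, Axin2, Znrf3, Rnf43, Wif1, Frzb, Kremen1, Frat1, Frat2, Lef1 and Tcf7. This gave 55 of the 46078 genes counted, namely 19 Wnt ligands, 4 R-spondins, 3 R-spondin receptors, 2 receptor-degrading ligases, 10 Frizzled receptors, 6 secreted Wnt-binding antagonists, 5 genes for the Dkk antagonists and their receptor Kremen1, 4 intracellular regulators and 2 nuclear factors. Fzd6 was listed under 2 gene IDs, and the ID with the higher count was kept.

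Whole ovaries of 5 WT and 4 ERβKO mice on a C57BL/6J background gave 1 RNA-seq library each. In the ERβKO mice exon 3 of Esr2, the gene of estrogen receptor β, was deleted in the germline by crossing a floxed allele to Rosa26-Cre deleter mice, so the deletion was not limited to an ovarian cell type, and the WT mice were offspring without Cre. By the study's methods mice were 4 to 20 weeks old, and the ovaries were not synchronized by estrous cycle. All 9 libraries are labelled untreated, although the protocol text attached to the same libraries describes a high-fat or matched control diet and injections of the ERβ ligand DPN or vehicle, with no diet or injection given per mouse.

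The libraries held 12353740 to 16519975 counted fragments in WT and 13088728 to 18717510 in ERβKO ovaries. Esr2 was counted over its whole length, the exons left in the deleted allele included, and ranged from 12.4 to 23.9 FPKM in WT and from 10.5 to 23.7 FPKM in ERβKO ovaries, so this count does not check the genotypes. WT replicate 2 stood apart from the other WT ovaries on the first principal component (9.43, against -43.82 to -15.62 in the other WT and 19.35 to 35.35 in ERβKO ovaries). Of the marker lists for the cells of the ovary, the granulosa list had 11 of 12 genes higher in ERβKO ovaries, with a summed level of 658 to 796 FPKM in WT and 891 to 1170 FPKM in ERβKO ovaries. The luteal list had 8 of 9 genes lower, with 2778 to 6551 FPKM in WT and 2537 to 3783 FPKM in ERβKO ovaries. The theca list had 4 of 6 tested genes higher, with 756 to 1267 and 1162 to 2081 FPKM. Ovgp1, a gene of oviduct epithelium, stood at 1294 to 2359 FPKM in WT and 1483 to 1906 FPKM in ERβKO ovaries. In whole ovaries, fewer cells of a type and less RNA per cell cannot be told apart.

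Wnt proteins are secreted lipid-modified ligands that bind a Frizzled receptor together with the co-receptors Lrp5 or Lrp6, which stops the Axin complex from marking β-catenin for destruction and lets β-catenin join Tcf and Lef factors on DNA. R-spondins bind Lgr4, Lgr5 or Lgr6 and keep the ligases Znrf3 and Rnf43 from removing Frizzled receptors, whereas the Sfrp proteins, Frzb and Wif1 bind Wnt proteins outside the cell, and most Dkk proteins block the co-receptors. In the mouse, Wnt4 and Rspo1 are known for their need in the development of the female gonad, and Fzd1 and Fzd4 for roles in the adult ovary and in fertility.

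The promoters of 4 members that the results below turn on are shown, as the places where transcription of these genes starts. Rspo1 and Fzd1 were the DEGs among the members, and Wnt4 and Wnt10b were the ligands with the highest levels in WT ovaries. All stretches end just before the start of transcription in RefSeq (GRCm38.p6) or, for Wnt4, before the earlier start in GENCODE M21, and run 5′ to 3′ on the strand of the gene. They cover chr4:124986180-124986429 on the plus strand for Rspo1, chr5:4758217-4758466 on the minus strand for Fzd1, chr4:137277385-137277488 on the plus strand for Wnt4 and chr15:98778151-98778400 on the minus strand for Wnt10b. Capitals mark matches to the motifs named below.
Rspo1: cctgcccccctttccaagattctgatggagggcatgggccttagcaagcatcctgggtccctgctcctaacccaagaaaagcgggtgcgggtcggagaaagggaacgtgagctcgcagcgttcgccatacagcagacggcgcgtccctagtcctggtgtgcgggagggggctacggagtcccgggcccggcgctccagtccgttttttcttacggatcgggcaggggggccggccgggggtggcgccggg
Fzd1: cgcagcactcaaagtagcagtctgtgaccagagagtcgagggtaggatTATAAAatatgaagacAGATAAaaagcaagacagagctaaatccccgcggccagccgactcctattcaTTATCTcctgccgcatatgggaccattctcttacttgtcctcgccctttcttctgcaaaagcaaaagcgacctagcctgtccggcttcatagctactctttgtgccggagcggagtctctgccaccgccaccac
Wnt4: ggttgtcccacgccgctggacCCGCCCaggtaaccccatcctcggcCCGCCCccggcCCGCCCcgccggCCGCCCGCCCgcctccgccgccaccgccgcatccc
Wnt10b: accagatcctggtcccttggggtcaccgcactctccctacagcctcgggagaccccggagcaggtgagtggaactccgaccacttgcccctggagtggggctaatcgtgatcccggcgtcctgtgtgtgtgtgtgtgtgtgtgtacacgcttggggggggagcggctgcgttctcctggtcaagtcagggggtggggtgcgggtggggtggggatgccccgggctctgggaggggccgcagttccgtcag
In the window of Fzd1 the capitals mark a match to TATAAA and 2 matches to the core motif of the GATA factors, spelled AGATAA, none of which overlap. In Wnt4 they are 5 matches to the GC box GGGCGG, read on the other strand as CCGCCC, the last 2 of which overlap.

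Motifs were searched on both strands of the 250 bases before the RefSeq start, over 32536 promoters, and 37 of the 55 members were matched in the RefSeq table. TATAAA was found in 12.3%, AGATAA in 9.97% and GGGCGG in 33.0% of all promoters. The core of the TCF and LEF factors was found in 4.47% of promoters as CTTTGAA and in 3.21% as CTTTGAT, the full palindromic estrogen response element in 0.0645%, and the NR5A motif CAAGGTCA, which shares the letters GGTCA with that element, in 1.33%. Among the members, CTTTGAA was in the window of Dkk1 and CTTTGAT in those of Wnt5b and Wnt11, AGATAA was in those of Fzd1, Sfrp5 and Wnt8b, GGGCGG was in those of 26 and TATAAA in those of 8 of the 37, and the estrogen response element and the NR5A motif were in none of these windows. The GC content of the 250 bases was 85.2% for Wnt4, 66.8% for Rspo1, 66.8% for Wnt10b and 51.2% for Fzd1, beside a median of 52.4% over all promoters. These matches describe the letters only. The estrogen response element and the NR5A motif are so rare over all promoters that their absence from 37 windows says little. The study lists Fzd1 as the gene nearest to a distant intergenic site bound by ERβ and by LRH-1, a receptor of the NR5A motif. That site, which held an NR5A match, lies outside the window searched here. From the same libraries the study also reports Fzd1 as lower in ERβKO ovaries, and it names Fzd1 among the direct targets of ERβ.

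Of the 55 members, 42 passed the filter on low counts and were tested, and 38 of them had a mean above 1 FPKM (fragments scaled for the length of the gene and the depth of the library) in at least 1 genotype. The 13 others were Wnt1, Wnt2, Wnt3, Wnt3a, Wnt8a, Wnt8b, Wnt9b, Rspo4, Fzd9, Sfrp5, Dkk1, Dkk4 and Frat1, none of which exceeded 15 counts in a library. By mean level per length over the 9 ovaries the order began with Sfrp4 at 197 FPKM, Dkk3 at 32.9 FPKM, Wnt10b at 18.8 FPKM and Wnt4 at 16.8 FPKM, and 11 members were above 10 FPKM in at least 1 genotype. Sfrp1, Lgr4, Fzd6, Axin1, Tcf7, Wnt5a and Rspo1 followed between 16.0 and 11.2 FPKM, steps that are within the spread between ovaries.

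By edgeR's quasi-likelihood test, adjusted by Benjamini-Hochberg over all 16722 genes tested, 2 of the 42 members were DEGs (adjusted p under 0.05, absolute log2 fold change over 0.4 and mean above 1 FPKM). This is 4.76% of the members, beside 1.72% of all genes tested. The R-spondin gene Rspo1 was the 1 member that rose in ERβKO ovaries, where 0.915% of all genes tested rose, and the receptor gene Fzd1 was the 1 that fell, where 0.801% fell. With DESeq2, the test of the study, 5 members were DEGs, as Wnt4, Sfrp2 and Lgr4 were added on the lower side, beside 2.91% of the 27618 genes that DESeq2 tested and 4.80% of those that edgeR tested. At an unadjusted p under 0.05 there were 12 members (28.6%), 2 higher and 10 lower, beside 19.8% of all genes tested. The median log2 fold change of the 42 members was -0.07, beside -9e-04 over all genes tested, and 24 had a negative and 18 a positive value.

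The number of members called depended on single ovaries. Without WT replicate 2 there were 8 DEGs in edgeR's test (Frat2, Fzd1, Fzd2, Lgr4, Rspo1, Sfrp2, Wnt16 and Wnt4), in a fit that called 919 genes in all (5.56% of those tested, against 1.72% with all ovaries). Without WT replicate 1, ERβKO replicate 3 or ERβKO replicate 4 there were 0, in fits that called 0.709%, 0.897% and 0.472% of all genes tested. At an unadjusted p under 0.05 these fits had 11, 11 and 12 members. Over all genes tested they had 2706 of 16636, 3010 of 16938 and 2723 of 16958. Without WT replicate 3, WT replicate 5 or ERβKO replicate 2 there was 1. Those fits called 2.16%, 0.662% and 0.356% of all genes tested. Among the WT ovaries, replicate 2 had the highest level in 14 of the 38 members above 1 FPKM, Sfrp2, Sfrp4, Fzd2, Fzd6 and Wnt16 among them, and replicate 3 in 12, while among the ERβKO ovaries replicate 1 was highest in 14. These counts were not made over all genes, where WT replicate 2 also stood apart on the first principal component. For 9 members the FPKM of the genotypes did not overlap (21.4%, beside 7.61% of all genes tested). Wnt4, Wnt10a, Wnt10b, Fzd1, Lgr5, Sfrp2 and Frzb were lower in each ERβKO ovary than in each WT ovary, as were 3.31% of all genes tested, and Rspo1 and Axin1 were higher, as were 4.29%.

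**Figure D1:**
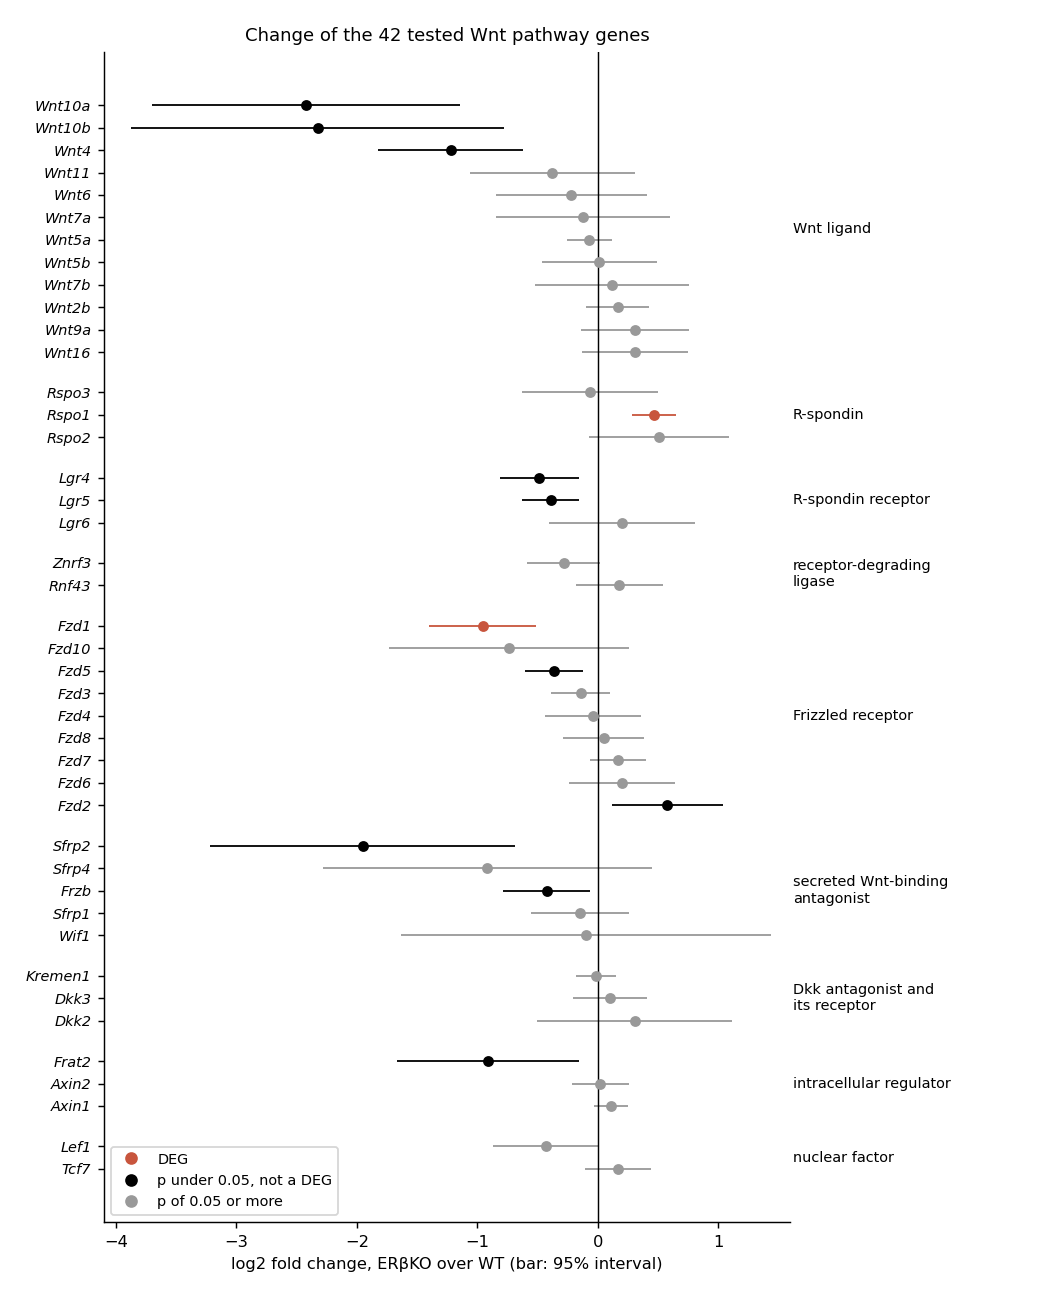
Log2 fold change, ERβKO over WT, of the 42 members tested, ordered by role, with the 95% interval of edgeR's fit as the bar. Rspo1 at 0.47 and Fzd1 at -0.96 are the DEGs, and Wnt10a, Wnt10b, Sfrp2 and Wnt4 lie farther to the left with wider intervals.

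Among the Wnt ligands, Wnt4 and Wnt10b had the highest levels in WT ovaries, and both were lower in every ERβKO ovary. Wnt4 (ENSMUSG00000036856, chromosome 4 of GRCm38 from 137277489 to 137299726) had a level of 27.6, 18.6, 33.5, 16.7 and 15.9 FPKM in WT replicates 1 to 5 and of 15.2, 8.01, 8.27 and 7.43 FPKM in ERβKO replicates 1 to 4. The genotypes were separated by the narrow gap between WT replicate 5 and ERβKO replicate 1, the other ERβKO ovaries being lower. The mean was 22.5 ± 7.75 FPKM in the WT against 9.72 ± 3.66 FPKM in the ERβKO ovaries (SD, n = 5 and 4). The fitted level was 2.33-fold lower. The log2 fold change of -1.22 (SE 0.27) had an adjusted p of 0.0503 by edgeR's quasi-likelihood test (Benjamini-Hochberg), just above the threshold, and of 0.000281 with DESeq2. Over the 19 alternatives the adjusted p of Wnt4 ran from 0.000281 to 0.156, and it was a DEG in 7 of them, including those without WT replicate 2 and without ERβKO replicate 1.

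Wnt10b (ENSMUSG00000022996, chromosome 15 from 98771753 to 98778150) encodes a ligand best known as an inhibitor of fat cell formation. Its level was 44.5, 21.4, 30.0, 21.0 and 28.2 FPKM in the WT ovaries and 6.38, 0, 10.8 and 6.54 FPKM in the ERβKO ovaries. In counts these were 1829, 1201, 1550, 1064 and 1277 in WT and 363, 5, 474 and 299 in ERβKO libraries, so the value listed at 0 FPKM, in ERβKO replicate 2, rests on 5 counts. All WT ovaries were above all ERβKO ovaries. The log2 fold change was -2.33 (SE 0.70) with an adjusted p of 0.110 by edgeR's quasi-likelihood test (Benjamini-Hochberg) and of 0.107 with DESeq2, so Wnt10b was not called. Without ERβKO replicate 2 the spread was smaller, the log2 fold change was -1.90 (SE 0.30) and the adjusted p was 0.0395 in the same edgeR test, a range of 0.0395 to 0.255 over the alternatives. The summed level of the adipocyte markers, 8 of 8 of which had a positive log2 fold change, was 139 to 267 FPKM in WT ovaries. In ERβKO replicates 1 to 4 it was 1033, 354, 453 and 158 FPKM, and 0 of the 8 markers were DEGs in edgeR's test. The part of this level in the Wnt10b result was not tested. Wnt1, the next member at 11.7 kb, had at most 2 counts.

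Wnt10a, a close relative of Wnt10b, was near the limit of detection. It had 12, 14, 31, 13 and 12 counts in WT and 9, 1, 2 and 1 counts in ERβKO libraries, or 0.220 to 0.583 FPKM in WT and 0.162 FPKM in ERβKO replicate 1, with 0 listed in the other ERβKO ovaries. Its log2 fold change of -2.42 (SE 0.58) had an adjusted p of 0.0588 by edgeR's quasi-likelihood test (Benjamini-Hochberg) and of 0.00531 by DESeq2. In the same edgeR test the adjusted p was 0.0186 without ERβKO replicate 1 and 0.0378 without WT replicate 2. Wnt10a could not be a DEG in any of these, since its means of 0.308 and 0.0405 FPKM are below the minimum of 1 FPKM. Its neighbour Wnt6, which ends 6.2 kb before the start of Wnt10a on the same strand, stood at 2.50 ± 1.17 FPKM in the WT against 2.35 ± 0.193 FPKM in the ERβKO ovaries (SD, n = 5 and 4), and its difference of -0.22 on the log2 scale did not pass.

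None of the 9 other ligands tested passed, with log2 fold changes from -0.38 for Wnt11 to 0.31 for Wnt16. Wnt5a, which acts mainly outside the β-catenin branch, was the most even of the ligands above 10 FPKM at 12.2 ± 1.49 FPKM in the WT against 12.7 ± 1.51 FPKM in the ERβKO ovaries (SD, n = 5 and 4). Its log2 fold change was -0.07, with a 95% interval from -0.26 to 0.12. Wnt2b stood at 8.48 ± 0.996 and 9.77 ± 1.98 FPKM and Wnt16 at 7.07 ± 2.37 and 9.00 ± 1.13 FPKM. For Wnt16, WT replicate 2 had 11.0 FPKM against 4.75 to 7.37 FPKM in the other WT ovaries, and the call of Wnt16 was made only without that ovary (adjusted p = 0.0417 in edgeR's test against 0.415 with all ovaries).

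Since FPKM is scaled for length, the ligands could be added up per ovary. The 19 ligands summed to 92.5 ± 14.0 FPKM in the WT against 59.5 ± 6.39 FPKM in the ERβKO ovaries (SD, n = 5 and 4), and the sums of at least 79.8 FPKM in WT lay above those of 52.7 to 68.1 FPKM in ERβKO ovaries. Wnt10b made up 31.0 ± 6.47% of the sum in WT and 9.75 ± 7.57% in ERβKO ovaries, and Wnt4 made up 23.8 ± 5.19% and 16.1 ± 4.27%. The difference in the sums thus mostly follows Wnt10b and Wnt4, neither of them a DEG in edgeR's test. In a smaller sum an unchanged level makes a larger share. Wnt5a, Wnt2b and Wnt16 had log2 fold changes of -0.07, 0.17 and 0.31. Their shares were larger in ERβKO ovaries, at 21.4 ± 2.69% against 13.4 ± 2.25% for Wnt5a. For Wnt2b they were 16.7 ± 4.82% against 9.23 ± 0.952%, and for Wnt16 15.2 ± 2.49% against 7.91 ± 3.17%. By the mean share in FPKM, the leading ligand was Wnt10b in WT and Wnt5a in ERβKO ovaries. Single ovaries differed from this. Wnt4 was above Wnt10b in WT replicate 3 and above Wnt5a in ERβKO replicate 1. Wnt2b was above Wnt5a in ERβKO replicate 2. The leader in WT also depended on the unit. In CPM, which is scaled for library depth but not for gene length, Wnt4 had the largest mean share in WT ovaries. It was 29.3%, with Wnt5a at 24.3% and Wnt10b at 21.7%. In ERβKO ovaries Wnt5a led in CPM as well, at 35.0%.

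**Figure D2:**
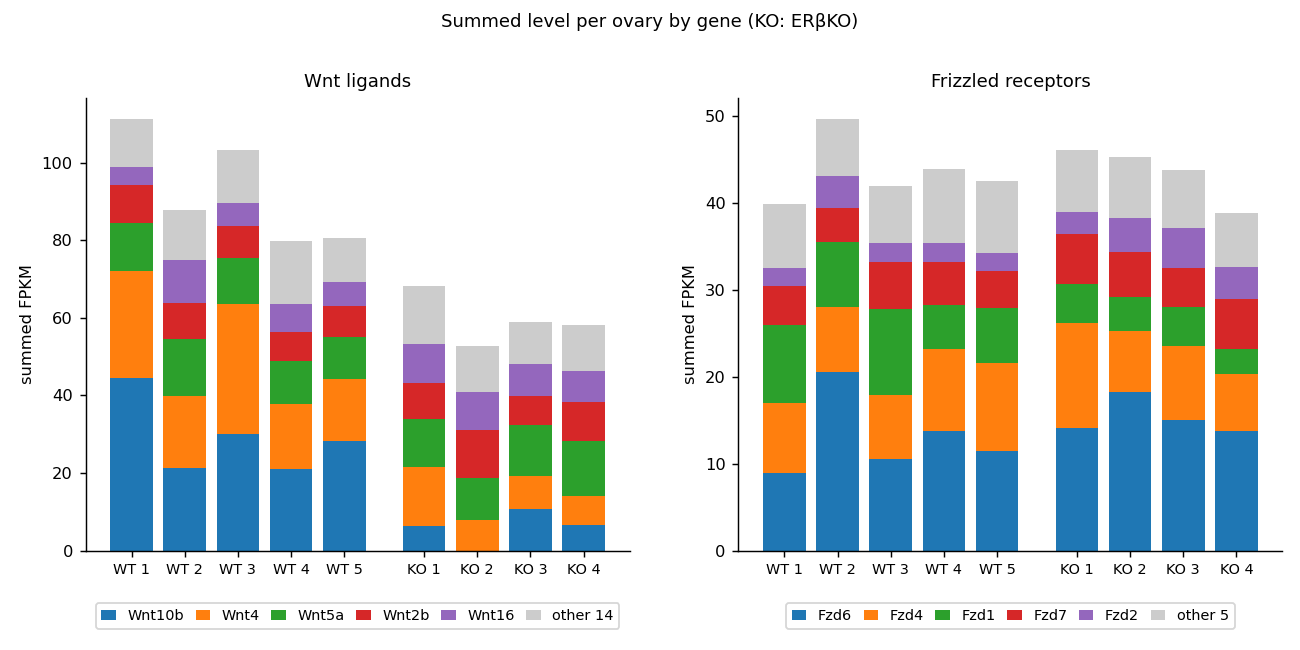
Summed FPKM of the Wnt ligands (left) and of the Frizzled receptors (right) in each of the 5 WT and 4 ERβKO ovaries, with the bars divided by gene. The ligand sums are 79.8 FPKM or more in WT and 68.1 FPKM or less in ERβKO ovaries, while the receptor sums overlap.

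The R-spondin genes were led by Rspo1 (ENSMUSG00000028871, chromosome 4 from 124986430 to 125009099), the member with the smallest p. Its level was 8.63, 10.3, 8.74, 9.78 and 9.87 FPKM in WT and 12.7, 14.3, 13.4 and 13.0 FPKM in ERβKO ovaries. The ovaries of each genotype lay close together, at 9.46 ± 0.735 FPKM in the WT against 13.3 ± 0.716 FPKM in the ERβKO ovaries (SD, n = 5 and 4), with a clear gap between them. Rspo1 rose 1.38-fold, a log2 fold change of 0.47 (SE 0.083), with an adjusted p of 0.0226 by edgeR's quasi-likelihood test (Benjamini-Hochberg) and of 0.000154 with DESeq2. It was a DEG in 13 of the 19 alternatives and had a log2 fold change between 0.43 and 0.50 with each ovary left out. The call was lost without WT replicate 1 or without ERβKO replicate 2, 3 or 4, with an adjusted p of at most 0.0928 in these edgeR fits.

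Rspo2 and Rspo3 were lower in level than Rspo1 in every ovary. Rspo2 was measured at 1.21, 1.21, 2.27, 1.80 and 0.988 FPKM in WT and 2.57, 1.75, 1.77 and 2.42 FPKM in ERβKO ovaries, a log2 fold change of 0.51 (SE 0.26) with an adjusted p of 0.317 by edgeR's test (Benjamini-Hochberg). Rspo3 was measured at 1.81, 2.05, 3.67, 3.52 and 3.63 FPKM in WT and 4.10, 2.47, 2.25 and 2.36 FPKM in ERβKO ovaries, a log2 fold change of -0.06 with a 95% interval from -0.62 to 0.50. An antisense gene covers 13.1% of the exons of Rspo3, and the strand setting of the counting is not given in the sources used here. The R-spondins summed to 13.9 ± 1.37 FPKM in the WT against 18.3 ± 0.871 FPKM in the ERβKO ovaries (SD, n = 5 and 4), with no overlap. Rspo1 made up 68.5 ± 6.69% of the sum in WT and 73.2 ± 5.45% in ERβKO ovaries. The sums thus mostly follow Rspo1, while for Rspo2 and for Rspo3 the genotypes overlapped.

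Of the 3 receptors of the R-spondins, 0 were DEGs in edgeR's test, 2 had an unadjusted p under 0.05, and 1 was a DEG with DESeq2. Beside this stand 1.72%, 19.8% and 4.80% of all genes that edgeR tested, and 3 genes are too few to compare with these shares. Lgr4, the most abundant of them, had 18.2, 12.8, 13.1, 18.9 and 20.3 FPKM in WT and 12.0, 12.0, 11.5 and 12.9 FPKM in ERβKO ovaries. WT replicates 2 and 3 lay within reach of the ERβKO ovaries, and WT replicate 2 overlapped them. Its log2 fold change of -0.49 (SE 0.15) had an adjusted p of 0.113 by edgeR's quasi-likelihood test (Benjamini-Hochberg) and of 0.0334 with DESeq2. Lgr5, a gene of stem cells in many epithelia and of the ovarian surface, had 9.04, 7.49, 7.95, 7.21 and 7.65 FPKM in WT and 5.51, 7.20, 6.23 and 5.49 FPKM in ERβKO ovaries. These did not overlap, but WT replicate 4 and ERβKO replicate 2 nearly met. Its log2 difference was -0.39 (SE 0.11), with an adjusted p of 0.0845 by edgeR's test (Benjamini-Hochberg). With DESeq2 the adjusted p was 0.0192, but the fold change was below the threshold of 0.4. Lgr6 had 4.43 ± 2.11 FPKM in the WT against 5.15 ± 1.10 FPKM in the ERβKO ovaries (SD, n = 5 and 4) and a log2 fold change of 0.20 that did not pass.

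The ligases that the R-spondins hold back were both expressed. Znrf3 had 4.78, 3.54, 4.71, 4.40 and 4.78 FPKM in WT and 4.42, 3.36, 3.09 and 4.21 FPKM in ERβKO ovaries. Rnf43 had 2.94, 3.71, 2.95, 4.44 and 3.03 FPKM in WT and 4.34, 5.02, 2.88 and 3.84 FPKM in ERβKO ovaries. In both the genotypes overlapped. The log2 fold changes were -0.28 (95% interval -0.58 to 0.02) and 0.18 (95% interval -0.18 to 0.54), and neither passed.

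Among the Frizzled receptors, Fzd1 (ENSMUSG00000044674, chromosome 5 from 4753839 to 4758035) was lower in ERβKO ovaries. Its level was 8.95, 7.50, 9.91, 5.16 and 6.34 FPKM in WT and 4.48, 4.02, 4.42 and 2.92 FPKM in ERβKO ovaries. The lowest WT ovary, replicate 4, was above the highest ERβKO ovary. Fzd1 fell 1.94-fold, a log2 fold change of -0.96 (SE 0.20), with an adjusted p of 0.0402 by edgeR's quasi-likelihood test (Benjamini-Hochberg) and of 0.000281 with DESeq2. With each ovary left out the log2 fold change was between -1.07 and -0.84, but the call was kept only without WT replicate 2 or 4, and it was made in 9 of the 19 alternatives, with adjusted p-values from 0.000281 to 0.128.

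Fzd2 pointed the other way. It had 2.09, 3.64, 2.11, 2.20 and 2.03 FPKM in WT and 2.47, 3.96, 4.58 and 3.63 FPKM in ERβKO ovaries, so that WT replicate 2 lay among the ERβKO ovaries and ERβKO replicate 1 near the WT ovaries. Its log2 difference was 0.58 (SE 0.21) with an adjusted p of 0.167 by edgeR's test (Benjamini-Hochberg) and 0.101 by DESeq2, and 0.75 with an adjusted p of 0.0358 by edgeR without WT replicate 2. Fzd5 had 2.04, 1.82, 2.26, 2.24 and 2.22 FPKM in WT and 1.80, 1.89, 1.69 and 1.34 FPKM in ERβKO ovaries, which overlap at WT replicate 2. Its log2 fold change was -0.36 (SE 0.11), with an adjusted p of 0.110 by edgeR's test (Benjamini-Hochberg). With DESeq2 the adjusted p was 0.0316, at a log2 fold change of -0.37 that was below the threshold. An antisense gene covers 17.8% of the exons of Fzd5.

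Fzd6 and Fzd4 had the highest levels of the family. Fzd6, a receptor of the planar polarity branch, had 8.91, 20.5, 10.5, 13.7 and 11.5 FPKM in WT and 14.1, 18.2, 15.0 and 13.8 FPKM in ERβKO ovaries. WT replicate 2 was the highest of all 9 ovaries, while the other WT ovaries were below the ERβKO ovaries. The log2 fold change was 0.20 (95% interval -0.24 to 0.64) and did not pass. It was 0.41 without WT replicate 2 (adjusted p = 0.0790 by edgeR), 0.0942 without WT replicate 1 and 0.12 without ERβKO replicate 2. Fzd4, which also serves as the receptor of Norrin in blood vessels, had 8.10, 7.46, 7.40, 9.43 and 10.1 FPKM in WT and 12.1, 7.00, 8.57 and 6.48 FPKM in ERβKO ovaries, with a log2 fold change of -0.04 (95% interval -0.44 to 0.36). The 4 other Frizzled genes tested, Fzd3, Fzd7, Fzd8 and Fzd10, had log2 fold changes from -0.74 for Fzd10, at means of 0.375 and 0.227 FPKM, to 0.17 for Fzd7, and none passed. The 10 receptors summed to 43.6 ± 3.69 FPKM in the WT against 43.5 ± 3.26 FPKM in the ERβKO ovaries (SD, n = 5 and 4). Within this sum the share of Fzd1 was 17.6 ± 5.19% in WT and 9.05 ± 1.13% in ERβKO ovaries, without overlap, and that of Fzd6 was 29.4 ± 7.43% and 35.2 ± 3.98%, a difference of 5.76 percentage points that was 8.75 without WT replicate 2.

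**Figure D3:**
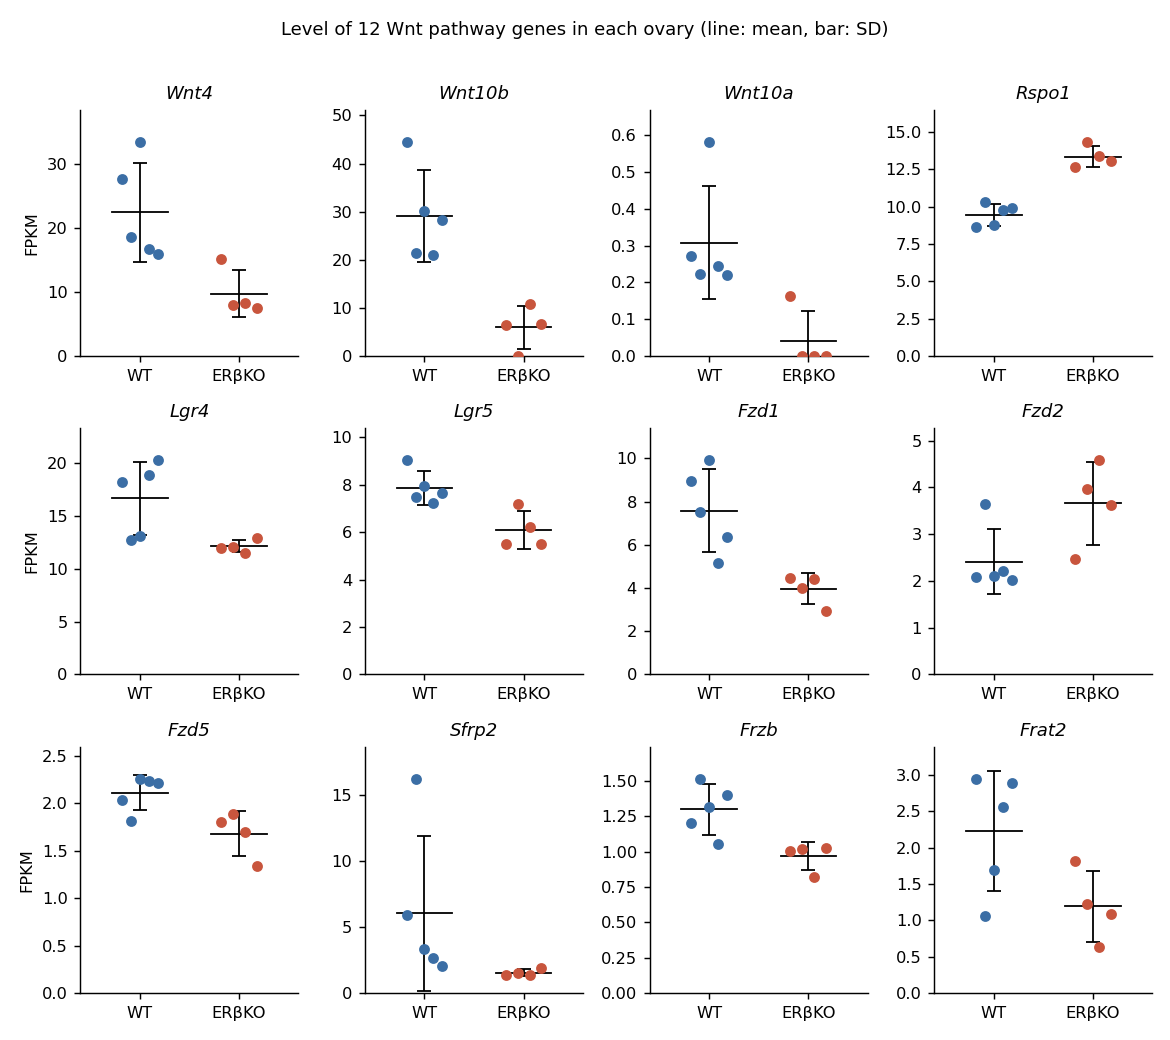
FPKM of the 12 members with an unadjusted p under 0.05 in each ovary, with the 5 WT ovaries in blue and 4 ERβKO ovaries in red (line, mean, and bar, SD). Rspo1 shows tight groups at 9.46 and 13.3 FPKM, while in Sfrp2 a single WT ovary at 16.2 FPKM sets the WT spread.

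The secreted antagonists included the most abundant member, Sfrp4, and the most uneven ones. Sfrp4, known as a gene of luteinizing cells, had 343, 358, 122, 165 and 257 FPKM in WT and 61.8, 22.4, 294 and 154 FPKM in ERβKO ovaries. The highest ERβKO ovary had 13.1 times the level of the lowest, and the highest WT ovary 2.94 times that of the lowest, so the genotypes overlapped widely. The log2 fold change of -0.92 had a standard error of 0.62 and an adjusted p of 0.440 by edgeR's test (Benjamini-Hochberg), and its 95% interval ran from -2.28 to 0.45. The summed level of the luteal markers, 2778 to 6551 FPKM in WT and 2537 to 3783 FPKM in ERβKO ovaries, spread as well, and its part in the level of Sfrp4 was not tested.

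Sfrp2 had 5.93, 16.2, 3.34, 2.61 and 2.01 FPKM in WT and 1.34, 1.50, 1.37 and 1.91 FPKM in ERβKO ovaries. The genotypes did not overlap, though WT replicate 5 was close to ERβKO replicate 4, and WT replicate 2 was far above the other WT ovaries. It differed by -1.95 on the log2 scale (SE 0.57), with an adjusted p of 0.104 by edgeR's quasi-likelihood test (Benjamini-Hochberg) and of 0.0301 with DESeq2. Without WT replicate 2 it was smaller at -1.15 (SE 0.29) and the adjusted p was 0.0433 in the same edgeR test. An antisense gene covers 16.1% of the exons of Sfrp2. Frzb, also called Sfrp3, had 1.20, 1.52, 1.32, 1.06 and 1.40 FPKM in WT and 1.01, 1.02, 0.823 and 1.02 FPKM in ERβKO ovaries. These just failed to overlap, and the log2 fold change of -0.42 (SE 0.16) had an adjusted p of 0.193 by edgeR's test (Benjamini-Hochberg) and 0.140 by DESeq2. Sfrp1, at 16.8, 14.7, 25.2, 12.7 and 13.4 FPKM in WT and 15.7, 14.4, 17.0 and 13.7 FPKM in ERβKO ovaries, had a log2 fold change of -0.14 (95% interval -0.55 to 0.26). All 5 antagonists tested, Wif1 among them at means of 0.295 and 0.264 FPKM, had a negative log2 fold change. For Wif1 and Sfrp1 it turned positive when certain ovaries were left out. In edgeR's test 0 were DEGs and 2 had an unadjusted p under 0.05, beside 1.72% and 19.8% of all genes tested. With DESeq2 1 was a DEG, beside 4.80% of the genes that edgeR tested. A class of 5 genes is too small to compare with these shares. The class summed to 273 ± 107 FPKM in the WT against 151 ± 121 FPKM in the ERβKO ovaries (SD, n = 5 and 4), of which Sfrp4 made up 89.9 ± 5.58% and 79.1 ± 17.2%. The difference in its share was -10.8 percentage points with all ovaries and -2.99 without ERβKO replicate 2.

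The Dkk genes were represented mainly by Dkk3, which unlike its relatives is not known as a blocker of the co-receptors. Dkk3 had 24.2, 36.9, 37.3, 33.2 and 26.0 FPKM in WT and 36.8, 41.4, 28.2 and 31.9 FPKM in ERβKO ovaries, a log2 fold change of 0.10 (95% interval -0.21 to 0.41). Dkk2, a blocker of the co-receptors, stood at 0.944 ± 0.487 FPKM in the WT against 1.18 ± 0.430 FPKM in the ERβKO ovaries (SD, n = 5 and 4). Kremen1, the membrane protein that binds Dkk proteins, had 8.43, 8.13, 9.38, 8.28 and 7.47 FPKM in WT and 8.76, 9.23, 7.88 and 7.60 FPKM in ERβKO ovaries. Its log2 fold change was -0.01 (95% interval -0.18 to 0.15).

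Inside the cell, Axin1 and Axin2, the scaffolds of the complex that marks β-catenin for destruction, were measured at even levels. Axin2, which is itself a widely used target gene of β-catenin, had 7.93, 9.44, 10.0, 8.65 and 6.79 FPKM in WT and 9.68, 9.09, 8.18 and 7.82 FPKM in ERβKO ovaries. Its log2 fold change was 0.02, with a 95% interval from -0.21 to 0.26. Axin1 had 13.6, 13.7, 12.9, 13.3 and 12.8 FPKM in WT and 14.9, 14.7, 14.3 and 15.0 FPKM in ERβKO ovaries. Each ERβKO ovary was above each WT ovary, yet the log2 fold change was only 0.11 (SE 0.064), with an adjusted p of 0.377 by edgeR's test (Benjamini-Hochberg). Frat2, a regulator of the kinase GSK3, had 2.95, 1.05, 1.69, 2.56 and 2.89 FPKM in WT and 1.81, 1.23, 0.637 and 1.08 FPKM in ERβKO ovaries, with overlap at WT replicates 2 and 3. The log2 fold change was -0.91 (SE 0.34) with an adjusted p of 0.182 by edgeR's test (Benjamini-Hochberg) and 0.0746 by DESeq2, and of 0.0445 by edgeR without WT replicate 2. Of the nuclear factors, Tcf7 had 13.0, 12.7, 16.3, 14.4 and 8.97 FPKM in WT and 14.0, 14.3, 16.6 and 14.7 FPKM in ERβKO ovaries, a log2 fold change of 0.17 (95% interval -0.10 to 0.45). Lef1 had 0.990, 0.658, 0.938, 0.713 and 0.584 FPKM in WT and 0.554, 0.508, 0.462 and 0.795 FPKM in ERβKO ovaries, a log2 fold change of -0.43 (95% interval -0.87 to 0.01), and an antisense gene covers 13.7% of its exons. In both factors the genotypes overlapped and the test was not passed.

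**Figure D4:**
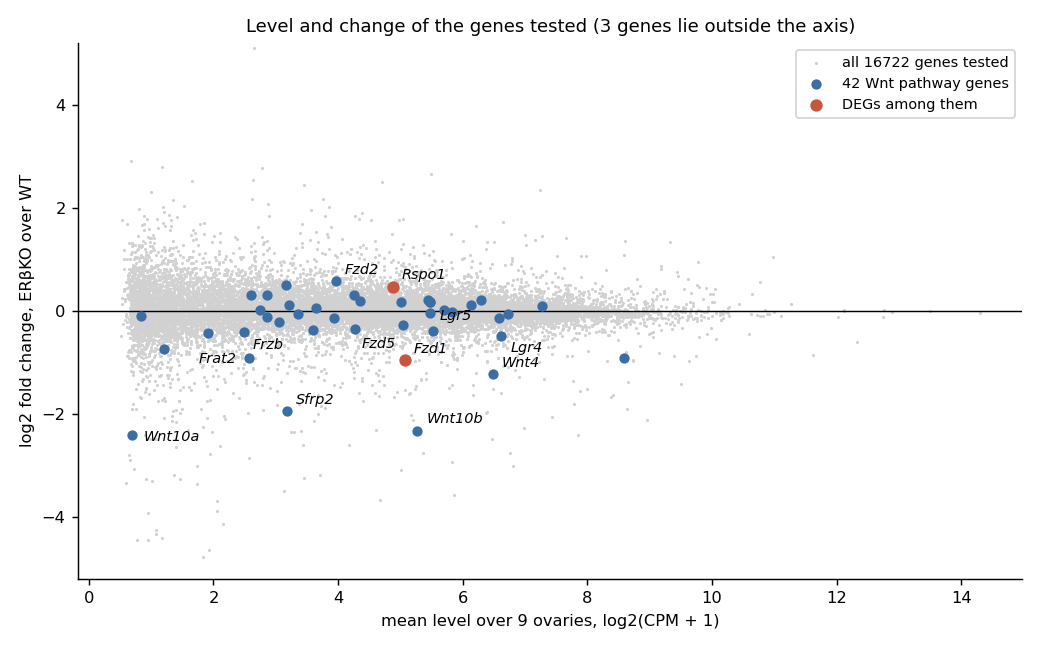
Mean level over the 9 ovaries, as log2(CPM + 1), and log2 fold change, ERβKO over WT, of all 16722 genes tested (grey) and of the 42 members tested (blue, and red for the DEGs). Wnt4 and Wnt10b lie among the farther genes below 0 at their level, while most members are within 0.4 of 0 (28 of 42).

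Of 62 other genes of the pathway (co-receptors, Wnt processing, β-catenin control, nuclear partners, planar polarity, further modulators and usual target genes), 57 were tested. In edgeR's test 1 was a DEG (1.75%, beside 1.72% of all genes tested). By DESeq2 2 were DEGs, beside 4.80% of the genes that edgeR tested. The co-receptor gene Lrp5 had 9.68, 6.58, 10.3, 8.57 and 7.67 FPKM in WT and 12.5, 11.7, 12.2 and 12.2 FPKM in ERβKO ovaries. Every ERβKO ovary was higher, and Lrp5 rose by a log2 fold change of 0.51 (SE 0.077), with an adjusted p of 0.0127 by edgeR's quasi-likelihood test (Benjamini-Hochberg), as a DEG in 15 of the 19 alternatives. Tle4, a corepressor of the Tcf factors, stood at 2.44 ± 0.325 FPKM in the WT against 3.37 ± 0.261 FPKM in the ERβKO ovaries (SD, n = 5 and 4). It differed by 0.44 on the log2 scale, with an adjusted p of 0.0664 by edgeR's test (Benjamini-Hochberg) and 0.00790 by DESeq2. Ctnnb1, the gene of β-catenin, chosen after its values were seen, had 164, 139, 162, 159 and 186 FPKM in WT and 133, 132, 128 and 133 FPKM in ERβKO ovaries. These did not overlap, as in 6 of the 57 tested (10.5%, beside 7.61% of all genes tested), with 2 lower and 4 higher. The log2 fold change of Ctnnb1 was -0.33 (SE 0.086) with an adjusted p of 0.0757 by edgeR's test (Benjamini-Hochberg). With DESeq2 the adjusted p was 0.00926, and with each ovary left out the lowest by edgeR was 0.0188, but the fold change stayed under 0.4 and Ctnnb1 was no DEG in any alternative. Of the 10 usual targets of β-catenin on this list, 9 were tested and 0 were DEGs by edgeR or DESeq2. Of all genes that edgeR tested, 1.72% and 4.80% were DEGs, so 0 of 9 is near these shares. An unadjusted p under 0.05 was reached by 2 targets (22.2%, beside 19.8% of all genes tested). Their log2 fold changes ran from -0.38 to 0.27 over the 9, with 7 negative and 2 positive.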

How the data were processed

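The stranded poly-A libraries were mapped by the authors to GRCm38 with STAR. Raw counts of fragments, 1 per gene and library, were deposited by the authors from featureCounts, and the strand setting and versions are not given in the sources used here. The deposited FPKM values were calculated by the authors with StringTie, scaled for gene length and library depth. The deposited TPM values and the deposited coverage signal of the same files were read but not used for a result. Replicates were not pooled. An FPKM value was found for 46072 of the 46078 gene IDs.

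Counts were filtered with filterByExpr, scaled by TMM and fitted on the genotype over all genes with edgeR 4.0.16 (quasi-likelihood test, Benjamini-Hochberg adjustment) in R 4.3.3, while the study used DESeq2, run here in version 1.42.0. A DEG passed 3 thresholds of the study, an adjusted p under 0.05, a log2 fold change beyond 0.4 in either direction and a mean above 1 FPKM in a genotype. As alternatives, other size factors, no filter, a minimum of 10 counts throughout, a block for the replicate number, the libraries numbered below 200 in the labels and fits without each ovary were tried, and limma 3.58.1 was run on log2(FPKM + 1) and log2(FPKM + 0.1). The smallest p of a two-sided exact permutation test with 5 and 4 ovaries is 0.0159. Tables were handled in Python 3.11.15 with pandas 2.3.3 and SciPy 1.17.1.

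Members named with values in each ovary were those with an unadjusted p under 0.05 or called by edgeR or DESeq2, and those 2 with the highest mean FPKM in each role class, 25 in all. Of the other pathway genes, those called by edgeR or DESeq2 were named. Ctnnb1, Wnt2b, Wnt5a, Wnt6, Wnt11, Wnt16, Rspo2, Lgr6, Fzd7, Fzd10, Wif1 and Dkk2 were given values outside this rule, after their values were seen. The members, the gene lists and the marker lists were chosen with earlier results of these data known. Role classes, marker lists and shares were described without a test. The markers not described in the text were those of oocytes (9 of 9 tested genes higher), surface epithelium (7 of 8), macrophages (7 of 8), oviduct epithelium (6 of 8), stromal (4 of 8), endothelial (1 of 8) and Schwann cells (4 of 5).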

Additional observations from a re-analysis of the deposited data

Results flagged for a closer look

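In 7 of 58 groups of values looked at (the FPKM of 25 members and of 4 class sums in each genotype), 1 ovary stood far from the others of its genotype by Dixon's ratio, where chance gives about 1 in 20, or 2.9 groups. Wnt4 was 15.2 FPKM in ERβKO replicate 1 against 7.43 to 8.27 FPKM in the other ERβKO ovaries. Wnt10a was 0.583 FPKM in WT replicate 3 against 0.220 to 0.273 FPKM in the other WT ovaries, and 0.162 FPKM in ERβKO replicate 1 where the other ERβKO ovaries were listed at 0, all on 31 counts or fewer. Sfrp2 was 16.2 FPKM in WT replicate 2 against 2.01 to 5.93 FPKM, and Fzd2 was 3.64 FPKM in the same ovary against 2.03 to 2.20 FPKM. Rspo3 was 4.10 FPKM in ERβKO replicate 1 against 2.25 to 2.47 FPKM in the other ERβKO ovaries. Frzb was 0.823 FPKM in ERβKO replicate 3 against 1.01 to 1.02 FPKM.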

How the results depend on the processing

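Over the 19 alternatives the 12 members with an unadjusted p under 0.05 had the same sign in all 224 values. They were picked by that p in the same libraries that the alternatives refit, so the shared sign is no separate test. Calls depended on the tool and on single ovaries. The count of DEGs over all genes, 287, was 805 with DESeq2, 51 with only the libraries numbered below 200 in the labels (without WT replicates 4 and 5), 39 with limma on log2(FPKM + 1) without a filter, and 60 (without ERβKO replicate 2) to 919 (without WT replicate 2) with 1 ovary left out. The count among members, 2, was 5 with DESeq2, 1 with the libraries numbered below 200, 1 in each of the 3 limma fits, and 0 to 8 with 1 ovary left out. Among the other pathway genes the count of 1 was 2 with DESeq2 and 1 to 2 with 1 ovary left out. It was 0 with the libraries numbered below 200 (10 genes at an unadjusted p under 0.05) and in the 3 limma fits (12 each). Over all genes, 2328 of 16840 were at that p with the libraries numbered below 200. In the limma fits 2860 of 14864, 2859 of 14864 and 3631 of 27015 were. The cause of these shifts was not tested.

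The replicate numbers did not pair the ovaries (correlations of their deviations 0.095, 0.13, -0.043 and -0.011). With the replicate number as a block there were 155 DEGs over all genes and 2 among members, Fzd1 and Wnt4, while Rspo1 was not called, at a log2 fold change of 0.50 (adjusted p = 0.0699 by edgeR). Of the 42 members tested, 14 changed sign in an alternative, with 0 calls among them. With the block, log2 fold changes were -0.0439 for Axin2, 0.0079 for Fzd4 and 0.0541 for Rspo3. With the libraries numbered below 200 they were -0.0513, 0.13 and 0.16, and 0.12 for Wnt11, -0.0105 for Lgr6 and 0.74 for Wif1. Kremen1 was 0.0038 with limma on log2(FPKM + 1), with or without the filter, and 0.0042 on log2(FPKM + 0.1), Wnt5a was 0.0528 and 0.0565, and Wnt6 was 0.0137 on the latter. With 1 ovary left out the ranges were -0.0438 to 0.0915 for Axin2, -0.24 to 0.0730 for Fzd4, -0.0514 to 0.0358 for Kremen1, -0.28 to 0.0384 for Rspo3, -0.23 to 0.0527 for Sfrp1, -0.34 to 0.0670 for Wnt6 and -0.67 to 0.28 for Wif1. The differences in share of Wnt10b, Wnt4, Wnt5a, Wnt2b, Wnt16, Fzd1, Fzd6 and Sfrp4 kept their sign in CPM and with each ovary left out, and in CPM that of Wnt16 was 3.28 percentage points (7.33 in FPKM) and that of Wnt5a 10.7 (8.05 in FPKM). Depth limits Wnt10a and Wif1, with at most 31 counts in a library, and Fzd10, with at most 50.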
